A study of Mus musculus with 72 samples.

Results

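MITF, TFEB and TFE3 were all enriched over input at 6686 of the 82577 sites of open chromatin measured in nuclei of wild-type (WT) mouse oligodendrocytes, at places that were either no microglial site or low for all 3 factors in WT microglia. These sites were chosen from measured values. A score was defined as log2((factor + 1)/(input + 1)), in tags (sequenced fragments assigned to a 200 bp window) per 10M tags of a library, where 10M is the library total to which the authors scaled. A site was a member when all 3 WT scores were at least 2 in oligodendrocytes, and when either no microglial site had its centre within 200 bp (5896 members) or the one that did had all 3 WT scores below 1 (790 members). Of 9148 sites with 3 oligodendrocyte scores of at least 2, the other 2462 had a microglial score of 1 or more and are called shared sites here. The members are called oligodendrocyte-only sites, which names the selection rule and is not a result.

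Nuclei came from the brains of C57BL/6 mice that were WT or lacked Sgsh (SgshKO). Sgsh codes for sulfamidase, a hydrolase that lysosomes need to break down heparan sulfate. Its loss is the defect of mucopolysaccharidosis type IIIA. Oligodendrocyte nuclei were sorted as OLIG2-positive, PU.1-negative and NEUN-negative, microglial nuclei as PU.1-positive and negative for OLIG2 and NEUN, and neuronal nuclei as NEUN-positive and negative for the others. OLIG2 is carried by oligodendrocyte progenitors as well as by mature oligodendrocytes, so the sorted nuclei can hold both. The labels list 2 samples for each factor and genotype in oligodendrocytes and give these samples no age. In the deposited factor table the replicates are merged into 1 pool per antibody and genotype. Values from these pools carry no replicate spread, and no test was made on them. Acetylation of histone H3 at lysine 27 (H3K27ac), a mark of active promoters and enhancers, was measured in 2 oligodendrocyte libraries each of WT and SgshKO at 4 months and at 8 months. The labels do not say whether replicates were separate animals, so p-values measure the spread between these libraries, which may be technical.

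MITF, TFEB and TFE3 are related basic helix-loop-helix leucine zipper factors that bind as dimers to E-boxes, short sequences of which CACGTG is the best known. TFEB and TFE3 are held in the cytoplasm when the kinase complex mTORC1 is active at the lysosome, and enter the nucleus when it is not. They are known for driving lysosomal and autophagy genes. Oligodendrocytes wrap axons in myelin, and their genes are controlled by factors such as SOX10, OLIG2 and MYRF.

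The oligodendrocyte factor pools held 22827269 to 52808841 tags and the inputs 20775566 (SgshKO) and 52353915 (WT), and the 8 H3K27ac libraries held 21178752 to 34178145 tags. The library of SgshKO 4-month replicate 2 stood apart, with the fewest tags and a TMM (trimmed mean of M values) factor of 0.643, against 0.920 to 1.20 in the other 7. The 8-month H3K27ac libraries were recorded in steps of 0.5 tags and the 4-month ones in steps of 1 tag, so age and handling cannot be told apart. Sites within 1 kb of a start site were present for 39 of 40 myelin and oligodendrocyte genes and 16 of 18 progenitor genes, with summed H3K27ac of 7170 to 9510 and 588 to 876 TMM-scaled tags per 10M. Such sites were present for 3 of 20 microglial genes (summed 81.5 to 125), 6 of 16 neuronal genes (17.1 to 46.0), 4 of 12 astrocyte genes (163 to 237) and 1 of 10 endothelial genes (0 to 3.90). Cx3cr1, P2ry12 and Csf1r, which define microglia, and Rbfox3, which encodes NEUN, had no site there. The sums cover different numbers of genes. Per gene with a site, H3K27ac was 184 to 244 for the myelin list and 36.8 to 54.7 for the progenitor list. It was 40.8 to 59.1 for the astrocyte list, 27.2 to 41.6 for the microglial list and 2.86 to 7.67 for the neuronal list. The astrocyte genes with a site were thus at a level like that of the progenitor genes. In these bulk samples fewer cells of a type and less signal per cell cannot be told apart.

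The E-box letters CACGTG lay in a share of the promoters under oligodendrocyte-only sites close to that of promoters at large, and in a larger share under shared sites. Promoter stretches of RefSeq genes on GRCm38.p6 (250 bases before to 50 after the start site) were searched on both strands, and 542 stretches of 495 genes held the centre of 1 of 459 members. CACGTG occurred in 7.01% of those 542, in 15.9% of the 1313 stretches that held the centre of a shared site, in 10.8% of the 10558 that held any oligodendrocyte site and in 7.15% of all 32851. The longer TCACGTGA, which contains CACGTG, occurred in 1.48% of stretches under members, 3.73% under shared sites, 2.10% under any site and 0.974% of all. The variant E-box CATGTG occurred in 8.30%, 6.02%, 7.65% and 14.2%, and CAGCTG, an E-box bound by other helix-loop-helix factors, in 20.5%, 17.8%, 15% and 16.3% of the same sets. ACAAAG, a core of sites bound by SOX factors, occurred in 16.2%, 10.5%, 12.2% and 18.7%. A match describes letters and not a binding site, and its absence here says nothing of the factors. Sequences of members away from promoters were not used here.

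Promoter stretches of 9 members are shown because the results on promoters turn on them. Each is the part of a member's 200 bp window that lies before the start site, read in the direction of the gene, from RefSeq on GRCm38.p6. Capitals mark the E-box CACGTG, its variant CATGTG (on the other strand written as CACATG) or the CAGCTG box, on either strand. The first 6 are promoters of myelin genes (Opalin, Gal3st1, Mag, Mobp, Gjc3) and of Sesn3, a stress-induced protein that signals to mTORC1. They were picked, after their values were seen, from 11 such stretches of genes on the lists used here. None of the 11 had a RefSeq gene over it, and none of the 3 E-boxes occurs in the first 6. Of the 11 stretches, 9 had none of the boxes, and those of Hapln2 and Idi1 each had a CAGCTG. They lie at chr19:41077114-41077236, chr11:3983430-3983630, chr7:30914923-30915049, chr9:120149624-120149741, chr5:137963099-137963251 and chr9:14276067-14276267.
Opalin: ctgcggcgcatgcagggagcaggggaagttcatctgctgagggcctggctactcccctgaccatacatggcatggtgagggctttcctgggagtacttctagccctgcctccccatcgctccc
Gal3st1: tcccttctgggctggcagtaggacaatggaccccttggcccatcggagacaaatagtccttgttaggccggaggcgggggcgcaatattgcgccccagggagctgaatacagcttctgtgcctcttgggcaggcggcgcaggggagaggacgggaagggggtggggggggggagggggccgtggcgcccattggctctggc
Mag: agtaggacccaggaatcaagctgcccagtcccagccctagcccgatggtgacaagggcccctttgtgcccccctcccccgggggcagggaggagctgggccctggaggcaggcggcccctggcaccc
Mobp: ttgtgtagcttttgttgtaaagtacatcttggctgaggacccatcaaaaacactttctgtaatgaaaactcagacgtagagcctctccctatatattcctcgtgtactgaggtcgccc
Gjc3: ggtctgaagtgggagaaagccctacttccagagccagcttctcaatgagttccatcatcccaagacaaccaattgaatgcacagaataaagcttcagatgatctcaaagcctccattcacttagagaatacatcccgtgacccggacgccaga
Sesn3: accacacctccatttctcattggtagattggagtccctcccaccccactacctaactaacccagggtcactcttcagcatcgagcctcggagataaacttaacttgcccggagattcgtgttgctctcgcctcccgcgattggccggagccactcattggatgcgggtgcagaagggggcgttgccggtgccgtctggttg

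The other 3 stretches hold CACGTG and come from the 20 members whose window has CACGTG before the start site. Stretches with a RefSeq gene over them, or in a part of the genome set aside beforehand, could not be picked. Among the rest, these 3 had the highest lowest-of-3 WT score and were picked after their values were seen. Ninj2 encodes an adhesion molecule, Mccc2 a subunit of the mitochondrial enzyme methylcrotonyl-CoA carboxylase, and Mxd4 a partner of MAX that also binds E-boxes. They lie at chr6:120093183-120093379, chr13:100015640-100015781 and chr5:34187748-34187948. Of 22 CACGTG matches in the windows of those 20 members, 14 lay within 50 bp of the window's centre.
Ninj2: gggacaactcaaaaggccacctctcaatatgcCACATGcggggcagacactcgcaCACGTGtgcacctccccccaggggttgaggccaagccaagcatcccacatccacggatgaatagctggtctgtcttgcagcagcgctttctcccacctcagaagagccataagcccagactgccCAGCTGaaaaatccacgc
Mccc2: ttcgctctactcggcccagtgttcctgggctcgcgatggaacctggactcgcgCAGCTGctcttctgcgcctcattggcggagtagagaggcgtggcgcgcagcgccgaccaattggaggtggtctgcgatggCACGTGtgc
Mxd4: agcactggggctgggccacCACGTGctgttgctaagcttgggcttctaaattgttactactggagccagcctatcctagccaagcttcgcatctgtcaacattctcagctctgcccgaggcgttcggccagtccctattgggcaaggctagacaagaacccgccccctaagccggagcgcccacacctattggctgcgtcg

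In WT, MITF gave 26, TFEB 90.7, TFE3 58.7 and input 0.96 tags per 10M at Mccc2. The same pools gave 86.8, 128, 129 and 7.26 at Mxd4, and 16.6, 45.3, 28.5 and 0 at Ninj2. TFEB was above MITF at all 3 sites.

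**Figure D1:**
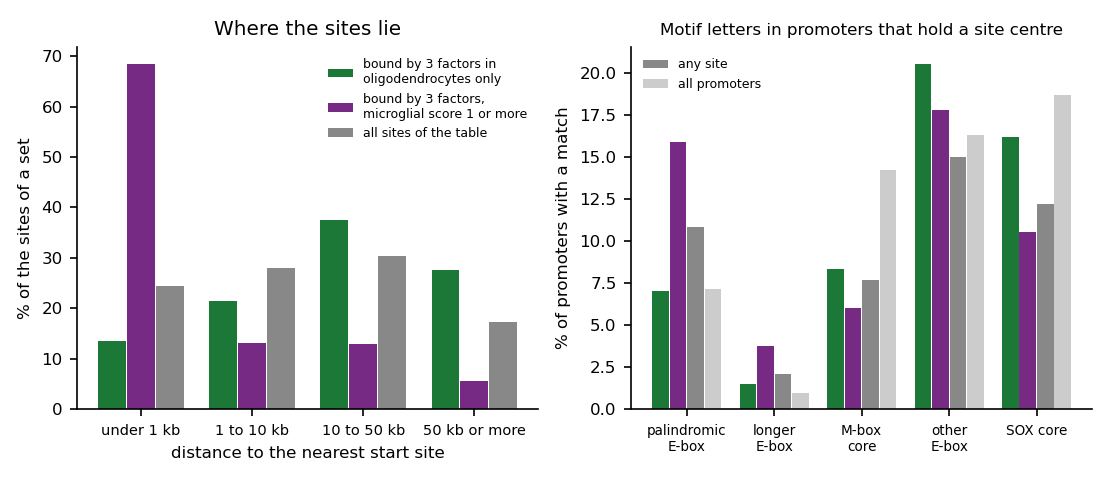
Left, percent of sites by distance to the nearest start site, for oligodendrocyte-only sites, shared sites and all oligodendrocyte sites. Right, percent of promoter stretches with each motif. Within 1 kb of a start site lay 13.6% of members and 68.4% of shared sites, a difference tied to the rule, since all shared sites and few members have a microglial site (28.3% for both sets together). CACGTG lay in 7.01% of the stretches under members, 15.9% under shared sites and 7.15% of all.

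Most of the oligodendrocyte-only sites were distal, a position that is tied to the microglial condition of the rule. Introns held 50.1%, intergenic sequence 32.5% and promoters 10.6% of members in the authors' annotation, against 18% in promoters for all oligodendrocyte sites and 61.4% for shared sites. The median distance to the nearest start site was 20823 bp for members and 8660.5 bp for all sites. Within 1 kb of a start site lay 909 members (13.6%), 24.4% of all sites and 68.4% of shared sites. Shared sites all have a microglial site, and among all oligodendrocyte sites those with one lay near start sites more often than those without. Of members with a microglial site 54.9% lay within 1 kb, against 54.0% of all oligodendrocyte sites with one, and of members without 8.06%, against 10.9%. Before the microglial condition 28.3% of three-factor sites lay within 1 kb. The share of sites that were members ranged from 6.00% on chromosome 19 to 10.7% on chromosome 13.

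The members had 4163 nearest genes, of which 2757 had 1 member and 139 had 5 or more. Afap1, which encodes an actin filament protein, and Tle3, a transcriptional corepressor, had the most with 12 each, of 65 and 53 sites. Olig2, whose protein was used for the sort, was the nearest gene of 10 members among 38 sites. Gpm6b, a membrane glycoprotein of neurons and glia, and Xylt1, a xylosyltransferase of proteoglycan synthesis, each had 7 of 14. A nearest gene is not always the gene that holds the site: of 4499 members annotated to a transcript with a RefSeq symbol, 3221 lay in or at the gene named as nearest. Of members, 6.95% had another member's centre within 800 bp, so their H3K27ac windows overlapped.

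Signal strength differed between the 3 factors at these sites. The medians over members in WT were 17.6 tags per 10M for MITF, 33 for TFEB, 31.1 for TFE3 and 0.96 for input. These values chose the members and are given as a description. MITF had the lowest of the 3 WT scores at 4558 members (68.2%), TFE3 at 1228 and TFEB at 900, and TFEB had the highest at 3052 (45.6%). Across members the WT TFEB and TFE3 pools ranked sites alike (Spearman 0.907), and MITF ranked them less like either (0.667 with TFEB, 0.656 with TFE3). In SgshKO the 3 pairs gave 0.903 (MITF and TFEB), 0.930 (MITF and TFE3) and 0.895 (TFEB and TFE3). These correlations are across sites, which share pools and depth, and are descriptions.

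The member with the highest lowest-of-3 WT score lay in intron 1 of Hivep3, which encodes a large zinc finger protein (chr4:119937843-119938043). In WT it had 347 tags per 10M for MITF, 802 for TFEB, 746 for TFE3 and 0 for input, and in SgshKO 1110, 1698, 1850 and 3.37. Exact Poisson 95% intervals, which cover counting error only, were 328 to 367 for WT MITF, 778 to 826 for WT TFEB and 721 to 771 for WT TFE3. Its lowest WT score was 8.44 and the next member's 6.56. The input count of 0, which raises the score, allows up to 0.705 tags per 10M by the same interval. It also had the most WT TFEB and TFE3 tags of all members, while a member nearest to Tppp3 had more WT MITF (412) and one nearest to Lingo2 more SgshKO TFE3 (1857).

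The next members by lowest WT score were nearest to Iqsec1, Slco3a1, Fbxo2, Slc6a11, Slc24a2, Ada, 1500009L16Rik, Bace2 and Inpp4a, with lowest scores from 6.56 down to 6.32. The site in intron 1 of Iqsec1, an exchange factor for ARF GTPases, had WT values of 321 (MITF), 258 (TFEB), 255 (TFE3) and 1.72 (input) tags per 10M, so MITF was the highest there. In the intergenic site nearest to Slco3a1, an organic anion transporter, WT MITF had 142, TFEB 112, TFE3 91.1 and input 0. Of these 10 sites, 7 had 0 WT input tags, and 1, the one near Fbxo2, lay at a transcript end. The nearest to a start site was the one by Fbxo2, 5943 bp away.

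At the threshold, members nearest to Kidins220, A730020M07Rik and Zfp746 had a lowest WT score of 2.00 after rounding, as did sites just outside it nearest to Brsk2, Specc1 and 4930511M06Rik. The site in Kidins220 had WT values of 19.8 (MITF), 249.2 (TFEB), 233 (TFE3) and 4.20 (input), so only MITF brought it near the threshold. The site in Specc1 had 23.9, 32.2, 17.5 and 3.63.

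**Figure D2:**
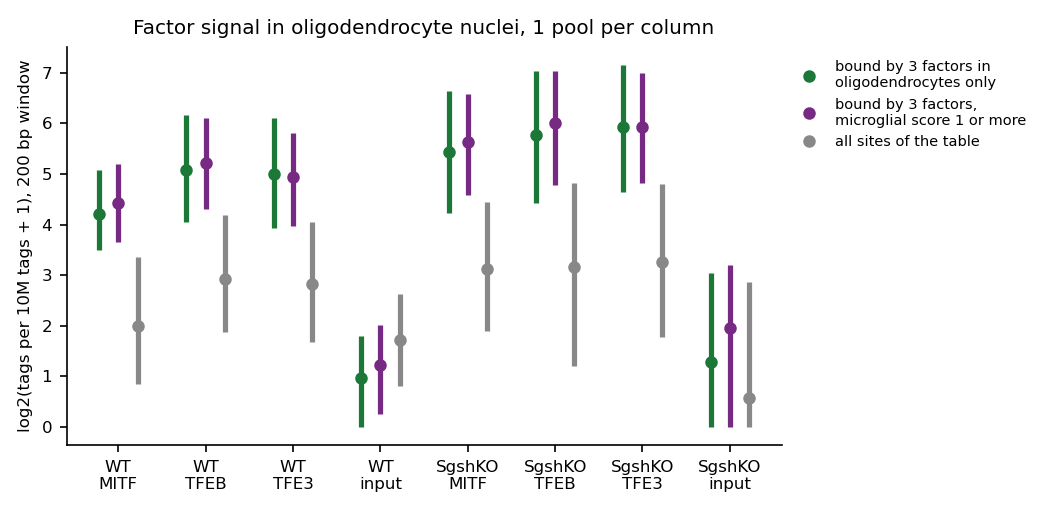
Tags per 10M in each oligodendrocyte pool over the 6686 oligodendrocyte-only sites, the shared sites and all sites, with 1 pool per column. The WT medians of members were 17.6 (MITF), 33 (TFEB) and 31.1 (TFE3), and the SgshKO medians 42.3, 53.9 and 60.1.

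The SgshKO oligodendrocyte pools, which the rule did not use, were enriched at most of the same places. All 3 SgshKO scores were at least 2 at 5004 members (74.8%), against 31.7% of all 82577 sites and 75.4% of shared sites. SgshKO medians were 42.3 tags per 10M for MITF, 53.9 for TFEB, 60.1 for TFE3 and 1.44 for input. Tags per 10M were higher in SgshKO than in WT at 80.3% of members for MITF, 76.1% for TFEB and 84.3% for TFE3. Over all sites the same shares were 70.9%, 53.6% and 62.6%. At shared sites these shares were not counted, but the medians were higher in SgshKO as well. There MITF had 20.6 in WT and 48.9 in SgshKO, TFEB 36.2 and 63.1, and TFE3 29.6 and 59.8. The median log2((SgshKO + 1)/(WT + 1)) over members was 1.18 for MITF, 0.68 for TFEB and 0.91 for TFE3, beside 1.11, 0.16 and 0.52 over all sites. Members were chosen on the WT pools, and each genotype is 1 pool per factor, so these differences between genotypes have no replicate check.

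The 1682 members that failed the threshold in SgshKO are split off by SgshKO factor and input values, so their higher SgshKO input and lower SgshKO factor values follow from the split and are given as a description. Their median SgshKO input was 6.26 tags per 10M and their median WT input 0.19. For the 5004 that passed, the medians were 0 in SgshKO and 1.34 in WT. SgshKO input exceeded WT input at 77.6% of those that failed and at 36.5% of those that passed. Median SgshKO factor values were 14.3 (MITF), 14.0 (TFEB) and 17.5 (TFE3) at sites that failed, and 60.5, 78.8 and 88.2 at sites that passed. With the WT input in place of the SgshKO input, 5774 members passed. The inputs held 0 tags at 30.8% (WT) and 44.6% (SgshKO) of members.

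The microglial side of the rule rests on few measurements. Factor signal in microglia was recorded at 91770 microglial sites only, so for the 5896 members without a site within 200 bp, microglial binding was not measured here. Of all members, 18.2% had a microglial site centre within 500 bp and 60.6% within 10000 bp. For the 790 members with one, the median WT microglial scores were -0.74 (MITF), -0.42 (TFEB) and 0.07 (TFE3), as the rule required.

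In SgshKO microglia, which the rule did not use, many of those 790 sites had signal. The TFE3 score was at least 2 at 426 of them (53.9%), MITF at 275 (34.8%) and TFEB at 243 (30.8%). At least 1 factor reached 2 at 490 (62.0%) and all 3 did at 132 (16.7%). Among all 35515 microglial sites with 3 WT scores below 1, the same shares were 48.4% and 8.19%. The rule's limit was a score of 1, and in SgshKO at least 1 factor reached it at 625 of the 790 (79.1%). All 3 did at 205 (25.9%), against 13.3% of the 35515 sites. The share of the 35515 with at least 1 factor at that limit was not counted. The name oligodendrocyte-only therefore holds for the WT pools and not for the SgshKO pools at these 625 sites.

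How many members were open chromatin sites in the other sorted cell types is tied to the rule, which took out three-factor sites with a microglial score of 1 or more. Before that step 35.5% of the 9148 three-factor sites had a microglial site within 200 bp and 43.3% a neuronal one, against 31.2% and 39.3% of all oligodendrocyte sites. After it 11.8% of members had a microglial site and 28.4% a neuronal one. Within the 5896 members without a microglial site 21.9% had a neuronal one, against 22.1% of all sites without a microglial site. Within the 790 with one the share was 76.5%, against 77.1%. Open chromatin in neurons was thus near the share of all sites in both classes. MITF, TFEB and TFE3 were not measured in neurons.

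Near start sites, genes of myelin had a larger share of oligodendrocyte-only sites than all genes did, while over all their sites the share was near that of all genes. Members were 106 of the 1187 sites nearest to 40 myelin and oligodendrocyte genes (8.93%), and 37 of 163 for 18 progenitor genes (22.7%), against 8.10% for all genes, 5.2% for lysosomal genes and 4.09% for autophagy genes. Within 1 kb of a start site members were 20 of 102 (19.6%) and 4 of 25 (16.0%) for the myelin and progenitor lists, against 4.52% for all genes. The astrocyte list had 1 of 5 there (20.0%), and the microglial, neuronal and endothelial lists had 0 of 6, 0 of 7 and 0 of 1. Few members have a microglial site, so these shares are tied to the rule. Of the 40 myelin genes, 37 had a member, and Aspa, Car2 and Qdpr had none. Over all sites the astrocyte list had 12 members of 63 sites (19%), the neuronal 4 of 38 (10.5%), the microglial 4 of 54 (7.41%) and the endothelial 2 of 27 (7.41%), so the astrocyte and neuronal shares were above that of the myelin list. The lists were chosen with earlier results of these data known, and these counts are descriptions with no test.

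For the pathways best known for these factors, shared sites were a larger share of the sites at start sites than members were, and most such sites were in neither set. Members within 1 kb of a start site were 1 of 93 sites for lysosomal genes (1.08%), 0 of 38 for V-ATPase genes, 1 of 62 for autophagy genes (1.61%), 2 of 47 for genes of the Rag GTPases, mTORC1 and the factors themselves (4.26%), and 2 of 48 for cholesterol and fatty acid synthesis (4.17%). Shared sites were 15.1%, 10.5%, 12.9%, 23.4% and 16.7% of the same promoter sites, against 8.37% for all genes. For the myelin list they were 4.90% and for the progenitor list 0%. Shared sites require a microglial site, so the split between the sets is tied to the rule. The shared lysosomal promoters belonged to 13 of 66 genes, among them Glb1, Gusb, Naglu and Smpd1, which encode hydrolases.

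**Figure D3:**
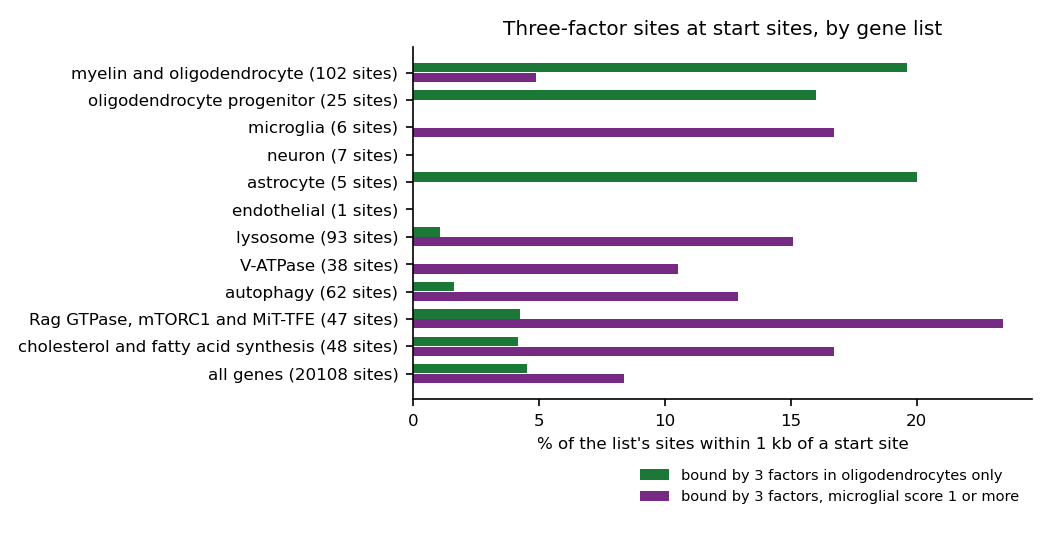
Percent of a list's sites within 1 kb of a start site that were oligodendrocyte-only sites (green) or shared sites (purple), with the number of such sites in brackets. The myelin list had 19.6% and 4.90%, the lysosome list 1.08% and 15.1%, and lists with fewer than 10 sites rest on single sites.

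Among structural myelin genes, Mobp, a basic protein of compact myelin, had 2 members with overlapping H3K27ac windows, at -18 and -365 bp from its start site (minus means before it). At the nearer one the WT pools had 128 (MITF), 57.0 (TFEB), 51.7 (TFE3) and 7.45 (input) tags per 10M and the SgshKO pools 68.7, 53.0, 72.3 and 7.70. MITF was the highest factor there in WT and was lower in SgshKO, unlike at most members. At Mag, an adhesion glycoprotein of the myelin membrane next to the axon, the WT values were 25.2, 79.5, 54.7 and 3.63 and the SgshKO values 112, 160, 118 and 4.33. All 3 factors were higher in the SgshKO pools at Mag.

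Opalin, a membrane protein of mature oligodendrocytes, had 36.1 (MITF), 123 (TFEB), 68.7 (TFE3) and 0.38 (input) in WT and 182, 202, 216 and 23.1 in SgshKO, so its SgshKO input was also raised. Gal3st1, the enzyme that makes sulfatide, had the highest TFEB value of the 20 promoter members of the list, with 81.7, 244, 201 and 4.20 in WT and 462, 790, 675 and 13.0 in SgshKO. Tmem98, a membrane protein that binds MYRF, had 69.7, 159, 95.5 and 5.35 in WT and 221, 351, 254 and 8.18 in SgshKO. TFEB was the highest WT factor at all 3 promoters.

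The gap junction genes Gjb1 and Gjc3 had members at their start sites. Gjb1 had 49.4 (MITF), 119 (TFEB), 104 (TFE3) and 2.87 (input) in WT and 148, 196, 195 and 14.4 in SgshKO. Gjc3 had 64.0, 88.8, 74.2 and 9.17 in WT and 137, 144, 98.0 and 3.85 in SgshKO. Trf, the iron carrier transferrin, had 149, 129, 115 and 7.83 in WT and 145, 246, 282 and 12 in SgshKO, so MITF was level between the pools while TFEB and TFE3 were higher in SgshKO.

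Among the lineage transcription factors, Sox10 had a member at -92 bp with 14.4 (MITF), 51.5 (TFEB), 39.2 (TFE3) and 1.91 (input) in WT and 76.4, 185, 151 and 4.81 in SgshKO. Nkx2-2, on the progenitor list, had 12.2, 26.9, 9.63 and 0.38 in WT, and 14.0, 51.2, 30.5 and 4.33 in SgshKO, where its lowest score was 1.49 and so below 2. The site in intron 1 of Cspg4, the NG2 proteoglycan of progenitors, had 21.4, 30.3, 61.1 and 0 in WT and 66.3, 74.9, 99.6 and 1.93 in SgshKO. The factor signal at these 3 genes was lower in WT than at Gal3st1 or Trf.

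**Figure D4:**
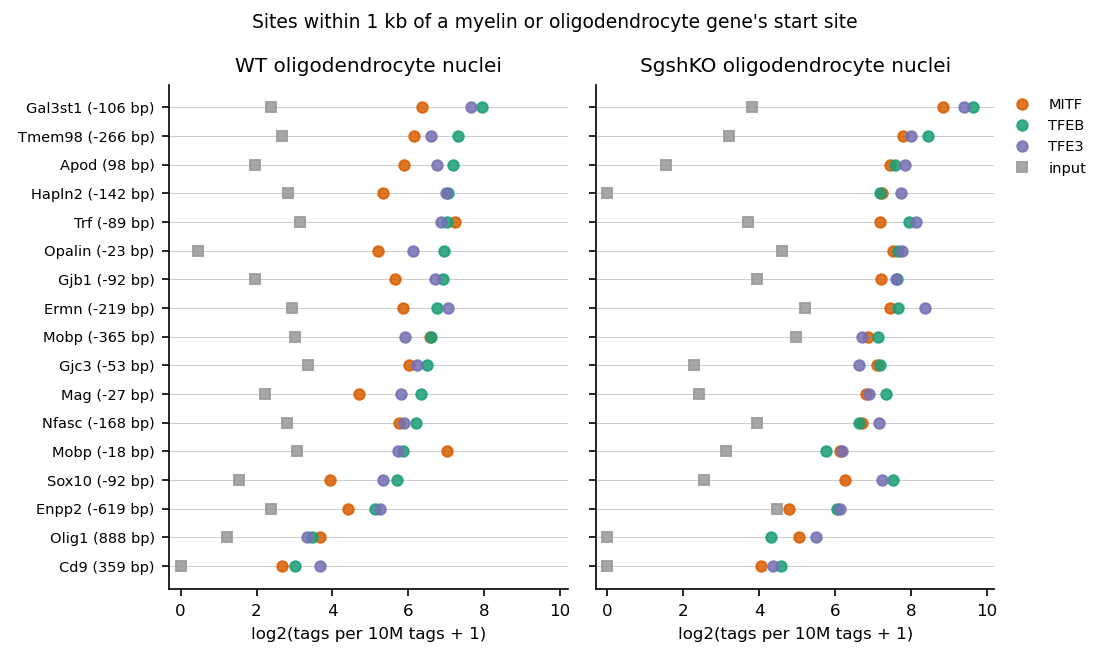
Tags per 10M in the WT and SgshKO pools at oligodendrocyte-only sites within 1 kb of start sites of genes on the myelin and oligodendrocyte list that are reported here, with the distance to the start site in brackets. Gal3st1 had the highest TFEB value (244 in WT, 790 in SgshKO), and MITF was lower in SgshKO than in WT at the nearer site of Mobp (68.7 against 128).

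The members near genes of the lysosome and its signalling lay mostly outside promoters. Hyal2, a hyaluronidase, had the only lysosomal member within 1 kb, with 14.4 (MITF), 17.4 (TFEB), 10.9 (TFE3) and 1.72 (input) in WT. Intron 1 of Scarb2, a membrane protein of lysosomes, had 12.8, 138, 164 and 1.53 in WT and 186, 247, 301 and 0 in SgshKO. WT MITF was far below TFEB and TFE3 there, and in SgshKO the 3 were closer.

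Of the signalling genes, Sesn3 had 68.1 (MITF), 62.5 (TFEB), 51.0 (TFE3) and 1.15 (input) in WT and 83.8, 120, 184 and 0 in SgshKO. Its microglial window had a highest WT score of 1.00 after rounding, just under the limit. Tfeb had a member 407 bp after a start site with 72.4, 23.7, 33.5 and 2.48 in WT and 25.2, 16.6, 16.3 and 4.33 in SgshKO, and MITF was the highest WT factor there. All 3 factors were lower in the SgshKO pools at that site. Scd2, a stearoyl-CoA desaturase, had 42.6, 137, 127 and 7.26 in WT and 185, 253, 318 and 1.93 in SgshKO.

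H3K27ac, which the rule did not use, was higher at the oligodendrocyte-only sites than at oligodendrocyte sites in general. Its median in 800 bp windows was 42.6 to 47.6 TMM-scaled tags per 10M in the 8 libraries at members, 40.4 to 49.2 at shared sites and 20.6 to 21.4 at all sites. At members 1 kb or more from a start site it was 42.6 to 47.9, and at all such sites 18.5 to 20.6. These ranges of library medians did not overlap between members and all sites, while the values of single sites did. In WT 4-month replicate 1 the lower and upper quartiles were 16.0 and 129 at members and 7.02 and 62.8 at all sites. The 2 inputs, which mix the genotypes, had medians of 3.30 (4 months) and 0 (8 months) at members. In WT microglia the median at the 790 members with a site was 17.5 to 21.1, and in WT neurons 26.4 to 28.1 at the 1896. Those tables were normalised separately, so the levels are set side by side without a comparison.

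Differences in H3K27ac were tested over all 78411 windows that passed a filter on low values, 6664 of them members, with limma and Benjamini-Hochberg adjustment at a false discovery rate (FDR) below 0.05. The filter uses the tags in the libraries themselves, and 22 members fell outside it. The largest number of calls came from age in WT, and the genotype gave few.

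Between 4 and 8 months in WT, H3K27ac rose at 147 members and fell at 7. These are 2.21% and 0.105% of the members tested, against 0.928% and 0.148% of all windows, and 2.97% of the shared sites rose. Members had higher H3K27ac than all sites, as given above. The shares over all windows, here and for genotype below, were not matched for that level. The median change over members was 0.098 on the log2 scale, against 0.021 over all windows. The changes of the 147 ran from 0.451 to 2.95 with a median of 0.739, and 27 of them lay within 1 kb of a start site. At all 147 both 8-month WT libraries were above both 4-month ones. The calls were made on these same libraries, so this is a description and adds nothing to them. Both SgshKO 8-month libraries were also above both SgshKO 4-month libraries at 135 of the 147 (91.8%), as at 35.1% of all members and 20.1% of all windows. The recorded steps differed between the ages in SgshKO too, so age and handling cannot be told apart there either. The count of members called rested on the WT libraries: without 8-month replicate 1 there were 18 and without replicate 2 there were 12, and without 4-month replicate 1 there were 355 and without replicate 2 there were 246. With library totals 95 were higher and 0 lower.

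The smallest p-values among members that rose were at sites nearest to Aym1, 3110039I08Rik and Tmem88b. The WT libraries at the site near Aym1 had 152 and 156 TMM-scaled tags per 10M at 4 months and 312 and 349 at 8 months. The change was 1.10 on the log2 scale (SE 0.14, limma FDR 1.71e-05). The site near 3110039I08Rik, in an intron of Mir100hg, a microRNA host gene, had 180 and 212 at 4 months and 384 and 401 at 8 months, a change of 1.00 (SE 0.13, limma FDR 1.88e-05). Tmem88b had 433 and 401, then 715 and 805, a change of 0.86 (SE 0.12, limma FDR 3.29e-05). These sites were named from calls whose libraries did not overlap, so the groups did not overlap at any of them.

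Of the 106 members of the myelin list, 9 rose between 4 and 8 months in WT and 0 fell. Of the 37 of the progenitor list 2 rose and 0 fell. Of all 6664 members tested 147 rose and 7 fell, and of all windows 0.928% rose and 0.148% fell. At the Mag promoter the WT libraries had 377 and 418 at 4 months and 683 and 677 at 8 months, and the SgshKO libraries 483 and 338, then 642 and 644. Both 8-month groups were above both 4-month groups, and the WT change was 0.78 (SE 0.12, limma FDR 0.00026). At Gjb1 the WT libraries had 181 and 187, then 334 and 281, a change of 0.73 (SE 0.14, limma FDR 0.00378). The call at Mag was kept in 9 of 11 alternative analyses and that at Gjb1 in 8 of 11.

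Sox10 had 148 and 149 at 4 months and 229 and 244 at 8 months in WT, a change of 0.66 (SE 0.15, limma FDR 0.0166). Nkx2-2 had 85.7 and 95.8, then 173 and 139, a change of 0.77 (SE 0.19, limma FDR 0.036). A member at -33463 bp from the start site of Olig2 had 137 and 151, then 245 and 242, a change of 0.76 (SE 0.16, limma FDR 0.00883). The other calls on these lists were at Trf, Bcas1, Cldn11, Tspan2, Gjc3 and Gpr17, with changes from 0.457 (Cldn11) to 0.646 (Gpr17). Gpr17, a receptor of committed progenitors, kept its call in 2 of 11 alternatives, Nkx2-2 in 5 and Sox10 in 6.

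The summed H3K27ac at start sites of the marker lists also differed between ages. The sums can include sites called above, so they are not a separate observation. In WT the myelin list had 7760 to 8140 at 4 months and 9050 to 9510 at 8 months, and the progenitor list 588 to 619 and 709 to 740. The neuronal list had 17.1 to 29.7 and 34.5 to 35.5, the microglial list 107 to 125 and 92.5 to 106, and the astrocyte list 220 to 237 and 201. Their part in the change at members was not tested.

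The 7 members that fell between 4 and 8 months in WT had changes from -1.37 to -0.55. At Kifc3, which encodes a minus-end-directed kinesin, the WT libraries had 348 and 361 at 4 months and 216 and 251 at 8 months, a change of -0.60 (limma FDR 0.00828). The SgshKO libraries there had 321 and 314, then 394 and 368, so they did not fall. The other sites with the smallest p were near Gm35978 (57.3 and 68.5, then 28.2 and 24.1) and Mfsd6 (233 and 286, then 146 and 177).

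Between SgshKO and WT at 4 months, 14 members had higher and 12 lower H3K27ac. These are 0.210% and 0.180% of the members tested, against 0.101% and 0.103% of all windows. None of the 26 lay within 1 kb of a start site. The libraries of the groups did not overlap at any of them, which is a description, since the calls used the same libraries. In intron 2 of Fgfrl1, an FGF receptor-like protein, the WT libraries had 49.9 and 50.2 and the SgshKO libraries 131 and 106. SgshKO was higher by 1.22 on the log2 scale (SE 0.21, limma FDR 0.00173), and at 8 months WT had 95.2 and 94.7 and SgshKO 99.0 and 127. At a site in intron 5 of Ephb2, a receptor tyrosine kinase (nearest start site Lactbl1), WT had 130 and 130 and SgshKO 262 and 206, a difference of 0.83 (SE 0.15, limma FDR 0.00407). Intron 1 of Rap1gap, a GTPase-activating protein for RAP1, had 157 and 150 in WT and 283 and 247 in SgshKO, a difference of 0.78 (limma FDR 0.00877).

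The lower sites with the smallest p were intergenic near 1700025K24Rik, in intron 30 of Tln2, a talin gene (nearest start site Mir190a), and near Eyelinc18. At the site near 1700025K24Rik, WT had 113 and 72.3 and SgshKO 34.3 and 25, a difference of -1.59 (SE 0.27, limma FDR 0.00192). The site in Tln2 had 129 and 174 in WT and 73.1 and 68.3 in SgshKO, a difference of -1.08 (SE 0.20, limma FDR 0.00411). The site near Eyelinc18 had 169 and 167 in WT and 77.5 and 99.9 in SgshKO. SgshKO was below WT in every library at these 3 sites, as the choice of named sites required.

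These 4-month counts rest on the SgshKO libraries and on the scaling. Without SgshKO replicate 1 there was 1 call and without replicate 2, the library with the low TMM factor, there were 2. Without WT replicate 1 there were 222 and without WT replicate 2 there were 90. With library totals in place of TMM, 1 member was higher and 4 were lower (20.0% higher, against 53.8% with TMM). At 4 months the summed neuronal list was 17.1 to 29.7 in WT and 37.4 to 37.5 in SgshKO, the microglial list 107 to 125 and 91.5 to 97.0, and the progenitor list 588 to 619 and 630 to 675. The 1 endothelial gene with a site had 3.42 to 3.90 and 0 to 1.47, and the myelin and astrocyte lists overlapped between the genotypes. The part of these lists was not tested.

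At 8 months 1 member was higher and 1 lower in SgshKO, against 0.00638% and 0.00255% of all windows. The higher one was at Kifc3, where WT had 216 and 251 and SgshKO 394 and 368, a difference of 0.71 (SE 0.13, limma FDR 0.0259). The lower one was in intron 3 of Npsr1, the neuropeptide S receptor gene, where WT had 548 and 542 and SgshKO 293 and 346, a difference of -0.77 (SE 0.11, limma FDR 0.00172). At 4 months the Npsr1 site had 614 and 568 in WT and 627 and 534 in SgshKO, and those groups overlapped. The call at Kifc3 was kept in 6 of 11 alternatives and that at Npsr1 in 8 of 11, and without WT replicate 1 or SgshKO replicate 1 no member was called. The summed marker lists moved with genotype at 8 months as well. The progenitor list had 709 to 740 in WT and 810 to 876 in SgshKO, the neuronal list 34.5 to 35.5 and 43.0 to 46.0, the microglial list 92.5 to 106 and 81.5 to 85.6, and the astrocyte list 201 and 163 to 181. The endothelial gene had 2.78 to 3.55 and 1.47 to 2.75, and the myelin list overlapped. Their part in the calls at 8 months and over both ages was not tested.

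In the fit over both ages, which had a term for age, 9 members were higher and 5 lower in SgshKO, against 0.0880% and 0.0497% of all windows, and 9 of these 14 were also called at 4 months. Leaving out single libraries gave from 3 (without SgshKO 4-month replicate 2) to 25 (without WT 4-month replicate 2), and library totals gave 0. The site in Ephb2 had 130, 130, 194 and 186 in the WT libraries and 262, 206, 301 and 342 in SgshKO, a difference of 0.79 (SE 0.11, limma FDR 2.85e-05), kept in 13 of 14 alternatives. All 4 SgshKO libraries were above all 4 WT libraries, as the choice of named sites required. An intergenic site near Gm20758 had 50.3, 27, 35 and 52 in WT and 78.5, 95.5, 87.2 and 90.8 in SgshKO, a difference of 1.13 (SE 0.19, limma FDR 0.00175).

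The Hyal2 promoter, the single lysosomal member at a start site, had lower H3K27ac in SgshKO. The WT libraries had 79.1 and 73.4 at 4 months and 97.8 and 75.9 at 8 months, and the SgshKO libraries 43.2 and 38.9, then 50.0 and 45.5. All 4 SgshKO libraries were below all 4 WT libraries, and the difference was -0.86 (SE 0.17, limma FDR 0.0156), kept in 10 of 14 alternatives. The factor pools at Hyal2 had 10.5 (MITF), 24.1 (TFEB), 16.3 (TFE3) and 0 (input) in SgshKO. No member of the myelin or progenitor lists was called between the genotypes at either age or over both with all libraries.

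The 37 members near progenitor genes nevertheless had median differences above those of all windows. SgshKO minus WT had a 4-month median of 0.19 on the log2 scale, an 8-month median of 0.35 and one of 0.28 in the fit over both ages, against 0.022, 0.0049 and 0.015 over all windows. Of the 37, 26, 32 and 31 were above 0, as were 52.1%, 50.6% and 52.3% of all windows. The 37 lie near 13 genes, with 7 near Xylt1 and 6 near Tnr. They were measured in the same libraries, so they are not independent observations and these counts are descriptions. With library totals the medians were -0.01, 0.30 and 0.16, beside -0.20, -0.039 and -0.12 over all windows, so the sign at 4 months turned. Leaving out WT 4-month replicate 2 gave a 4-month median of 0.074 with 2 of the 37 called and 1 called over both ages, leaving out WT 4-month replicate 1 gave 0.29 with 1 called, and leaving out SgshKO 4-month replicate 1 gave 0.076. The summed H3K27ac at start sites of the progenitor list was higher in SgshKO at both ages, as given above. Those sums can include some of these same sites. For the 106 members near myelin genes the medians were 0.017, -0.011 and 0.0031, and leaving out either WT 4-month library gave 1 call among them at 4 months.

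No member was called for the interaction of genotype and age with limma, against 0.0408% of all windows. Of the 6664 members tested, 421 had an unadjusted limma p under 0.05, and the share of all windows with such a p was not counted. The edgeR quasi-likelihood test called 0 and DESeq2 called 2. Effects called at 1 age and not at the other were therefore not shown to differ between ages.

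**Figure D5:**
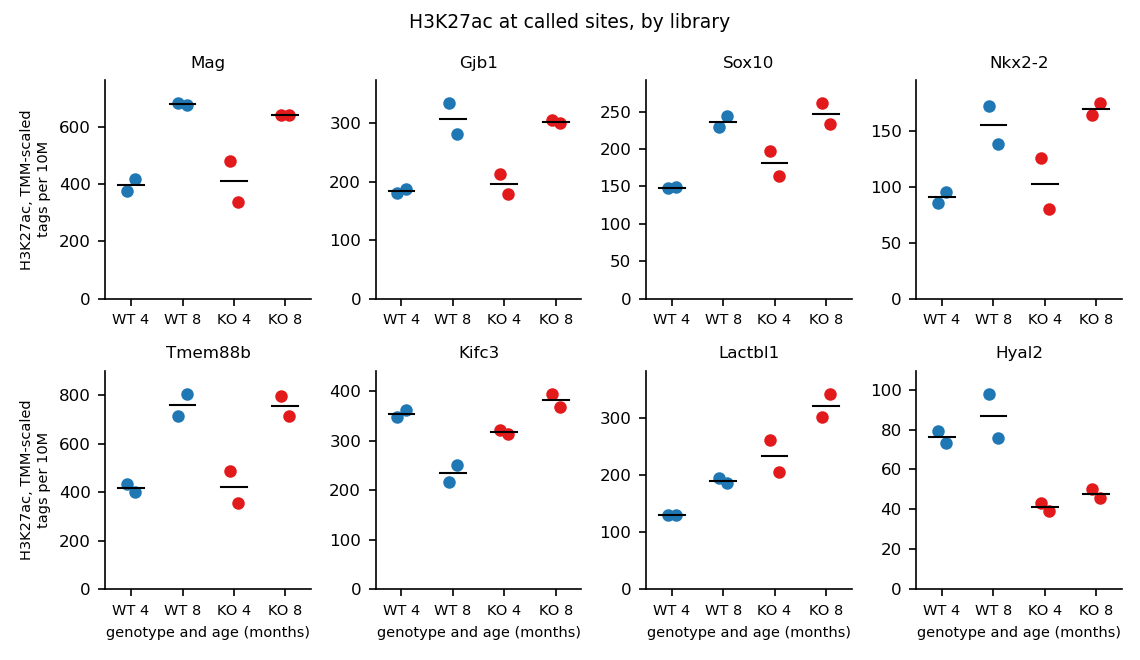
TMM-scaled H3K27ac tags per 10M in each library (dots) and group mean (lines) at 8 called members, for WT and SgshKO (KO) at 4 and 8 months. Mag, Gjb1, Sox10, Nkx2-2 and Tmem88b were higher at 8 months in WT, Kifc3 was lower at 8 months in WT, Lactbl1 (in Ephb2) was higher and Hyal2 lower in SgshKO.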

How the data were processed

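The deposited tables hold signal, which is tags per 10M tags of a library, per the file headers (200 bp windows for factors, 800 bp for H3K27ac). The submitters' processing notes name Bowtie2, HOMER, DESeq2 and mm10, without versions. The factor replicates were merged by the authors, per the file headers. All 52 value columns were mapped to the labels' groups. Members were found with Python 3.11.15, pandas 2.3.3 and numpy 2.4.6 by the rule in the opening of the results. Their Poisson intervals used scipy 1.17.1.

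For H3K27ac the signal was turned back into tags by its smallest step (100% of low values within 0.02 of a whole step), filtered with filterByExpr, scaled by TMM (edgeR 4.0.16), and taken as log2(tags per 10M + 1). The test was the limma 3.58.1 one with a variance trend, two-sided, in R 4.3.3. The 8 ChIP libraries were fitted as 4 groups, and the mixed inputs were left out. Alternatives were library totals, a pseudocount of 5, no filter, edgeR, DESeq2 1.42.0, a replicate block, the compared groups alone, each library left out, and other thresholds of the rule. The code was tested on simulated data.

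The members and gene lists were chosen with earlier results of these data known. Named sites were the 10 with the highest lowest WT score and 3 on each side of the threshold. Others were up to 10 per list by distance to the start site. Up to 3 called sites per contrast and direction were also named. These had the smallest p among called sites whose libraries did not overlap, so lack of overlap there follows from the choice. List members within 1 kb, called list members and the CACGTG promoters were added after values were seen. Microglial and neuronal tables were normalised separately. Values of some genes on the lists are not reported here, and the counts over the lists include them.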

Additional observations from a re-analysis of the deposited data

How the results depend on the processing

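The number of oligodendrocyte-only sites moved most with the score: 10236 at a threshold of 1.5, 2664 at a threshold of 3 and 2171 with a pseudocount of 5. A microglial distance of 100 bp (7028) or 500 bp (6407) and a microglial limit of 0.5 (6356) changed it less, and 3877 to 5774 members passed in SgshKO under 4 other settings. Counts of H3K27ac calls among members depended on the settings. Library totals gave 5 (4 months), 0 (8 months), 0 (both ages) and 95 (age), where the median of all windows moved to -0.20 (4 months), -0.12 (both ages) and 0.33 (age). With edgeR they were 8 at 4 months and 5 over both ages, and with DESeq2 5 at 8 months and 34 over both ages. With only the groups compared they were 6, 12 and 39 (4 months, 8 months, age). A replicate block gave 14 (4 months), 1 (8 months), 11 (both ages) and 13 (age). Same-numbered libraries did not deviate together over windows (correlation -0.00913 at 4 months and -0.0152 at 8 months). Each value compares 1 replicate difference per genotype, and the labels give no batch. Whether same-numbered libraries were handled together was not tested. Leaving out 1 library gave 1 to 222 calls at 4 months, 0 to 2 at 8 months, 3 to 25 over both ages and 12 to 355 for age. For age, WT 8-month replicate 1 left out gave 18 and replicate 2 gave 12, and WT 4-month replicate 1 gave 355 and replicate 2 gave 246. Where a library is left out, the lone one is assumed to vary like the other groups. Of 31 named calls, library totals ended 28, the replicate block 15 and DESeq2 1, and no direction reversed. The cause was not tested. Factor pools have 1 value per genotype, so depth gives counting error only.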
